A study of Mus musculus with 16 samples.

Results

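The genes described here tell apart the main classes of projection neuron in the mouse striatum, the D1 and the D2 medium spiny neurons. They were taken as every probe set that the platform annotation assigns to Drd1, Tac1, Isl1, Eya1, Sfxn1 or Slc35d3, which mark D1 neurons, or to Drd2, Gpr6 or Plxdc1, which mark D2 neurons. All 9 genes were measured, by 15 of the 37112 probe sets tested, and they are 9 of 16206 genes. Polysome-associated RNA was pulled down by a ribosome tag expressed in D1 neurons and hybridised to Affymetrix mouse arrays. There were 9 deletion mice, with the tag and, in D1 neurons, a homozygous miR-128-2 deletion, and 7 age-matched control littermates that had the tag and no deletion. All 16 were of strain C57BL6/J and were killed at 3 months of age. Repeat 1 held 4 deletion and 4 control arrays, and repeat 2 held 5 deletion and 3 control arrays. The labels call the replicates biological, with 1 array each. They name neither the line that carries the tag nor what drives the deletion.

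D1 neurons form the direct pathway from the striatum to the output nuclei of the basal ganglia and use the D1 receptor, which raises cyclic AMP, with substance P and dynorphin as co-transmitters. D2 neurons form the indirect pathway and use the D2 receptor, which lowers cyclic AMP, with enkephalin as their co-transmitter. The comparison asks which translated RNAs differ when D1 neurons no longer make miR-128 from the miR-128-2 locus.

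The mature microRNA is shown because it is what the deleted locus makes. The loci Mir128-1 (chr1:128202404-128202424, plus strand, GRCm38.p6) and Mir128-2 (chr9:112118644-112118664, minus strand) give the same 3p product in RefSeq, and their 5p products differ in sequence and share the seed. Capitals mark the seed, bases 2 to 8.
mmu-miR-128-3p: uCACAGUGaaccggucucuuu
mmu-miR-128-2-5p: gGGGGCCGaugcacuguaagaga
mmu-miR-128-1-5p: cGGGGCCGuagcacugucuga

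The deposited values are log2 expression from which each probe set's median was taken, so 0 is the median over the 16 arrays and no absolute level remains. It could not be checked on these values whether Drd1 exceeded Drd2 in the pull-down, and no input RNA was analysed here. Before the comparison, 2 control arrays stood apart from the other 14. The mean of 12 measured oligodendrocyte markers was 1.51 on control repeat 1 replicate 3 and 1.37 on control repeat 2 replicate 1, against at most 0.41 on the others. These arrays also had the highest means of the D2 genes, at 0.70 and 0.48, but deletion repeat 1 replicate 4 was close to the second, at 0.47. The 3′ minus 5′ signal of the array's Gapdh and beta-actin controls, a sign of RNA quality, was 0.40 and 1.82 on the 2 control arrays. Elsewhere it was at most 1.17, on deletion repeat 2 replicate 2. It was 0.41 on deletion repeat 1 replicate 4, so the 0.40 did not stand apart. Results that rest on the 2 control arrays are given with and without them.

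None of the 9 genes passed the test of deletion against control over all genes. Among the D1 genes 5 of 6 had a positive difference, with a median of 0.16 log2 and the largest in Slc35d3, and among the D2 genes 1 of 3 had a positive difference, with a median of -0.14. Over all 16206 genes 45.3% had a positive difference and the median was -0.003. Without the 2 control arrays 4 of 6 D1 genes had a positive difference, with a median of 0.10 log2. So did 3 of 3 D2 genes, with a median of 0.20, and 7089 of 16206 genes, with a median of -0.004. The count of called members was 0 of 9 by limma at a Benjamini-Hochberg adjusted p under 0.05, where 0.0617% of all genes were called, and it was also 0 with ordinary or robust variances. It was 0 of 15 member probe sets, where 0.0323% of all probe sets were called, and 0 of 9 genes without the 2 control arrays, where 0.00617% were called. At an unadjusted p under 0.05, 2 of the 9 were higher, Slc35d3 and Drd1, where 4.97% of all genes were, and 0 of the 9 were lower, where 3.71% of all genes were (2 of 9 in either direction, against 8.69%). No member lay below the controls without overlap in repeat 1 or in repeat 2, where 1.22% and 2.4% of all genes did, or on all 16 arrays, where 0.00617% did. Above the controls on all 16 arrays were 0 members and 0.0309% of genes. In these pull-down samples fewer cells of a type, less RNA per cell and a different share of untagged cells' RNA cannot be told apart.

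**Figure D1:**
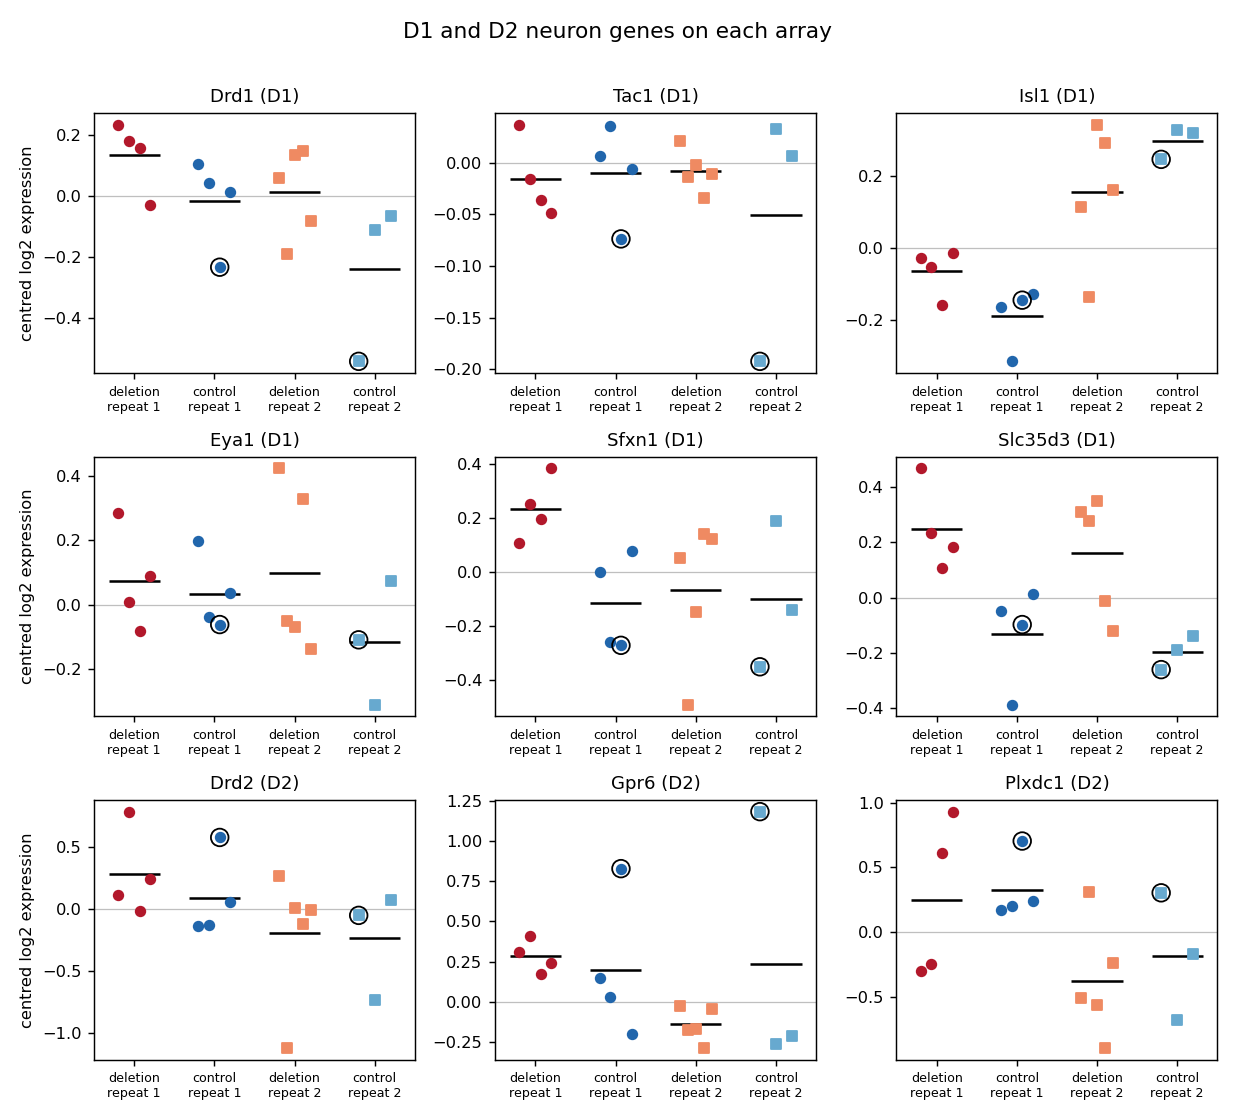
Centred log2 expression (vertical axes) of the 6 D1 and 3 D2 genes on each of the 16 arrays, by genotype and experimental repeat. Circles are repeat 1, squares are repeat 2, horizontal lines are group means, and black rings mark the 2 control arrays with the most oligodendrocyte marker RNA, which lie lowest in Drd1 and highest in Gpr6 within their groups.

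Slc35d3, an orphan nucleotide sugar transporter that is known in mice to help bring the D1 receptor to the cell surface, was the member with the largest difference. In repeat 1 it was at 0.47, 0.23, 0.11 and 0.18 on the deletion arrays, against -0.05, -0.39, -0.10 and 0.01 on the control arrays. In repeat 2 it was at 0.31, 0.28, 0.35, -0.01 and -0.12 on the deletion arrays, against -0.26, -0.19 and -0.14 on the control arrays. The genotypes did not overlap within either repeat, a pattern shown by 0.105% of all genes, although they overlap when the repeats are pooled.

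The difference of Slc35d3 was 0.37 ± 0.08 log2 (SE, deletion minus control), or 1.29-fold with a 95% interval of 1.14 to 1.46. Its limma adjusted p over all genes was 0.21, and it ranked 31 by p. It was 0.38 in repeat 1 and 0.36 in repeat 2, and 9 of 9 deletion values exceeded the mean of the controls in the same repeat, as in 2.37% of all genes. It was 0.36 ± 0.10 log2 when the 2 control arrays named above were left out (limma adjusted p = 0.65), nearly as large as with them. Slc35d3 was measured by 1 probe set, for which the authors' deposited table gives a genotype p-value of 0.0012. The limma p of that probe set before adjustment was 0.00046.

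Drd1, the D1 dopamine receptor itself, had a positive difference that was smaller without those 2 arrays. In repeat 1 it was at 0.23, 0.18, 0.16 and -0.03 on the deletion arrays, against 0.11, 0.04, -0.23 and 0.01 on the control arrays. In repeat 2 it was at 0.06, -0.19, 0.13, 0.15 and -0.08 on the deletion arrays, against -0.54, -0.11 and -0.07 on the control arrays. The genotypes overlapped in both repeats, and the lowest control value of each repeat came from an array high in oligodendrocyte markers.

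The difference of Drd1 was 0.20 ± 0.08 log2 (95% interval 0.03 to 0.37, limma adjusted p = 0.49). Within the repeats it was 0.15 and 0.25, and 8 of 9 deletion values exceeded the mean of the controls in the same repeat. With the 2 control arrays left out it was 0.09 ± 0.06 log2, with a 95% interval of -0.04 to 0.22, and was no longer among the genes with an unadjusted p under 0.05. Slc35d3 and Gpr6 were then the members higher at that threshold, where 2.67% of all genes were. Both probe sets of Drd1 gave positive differences. Probe set 1455629_at was at 0.28 ± 0.11 log2 and probe set 1456051_at at 0.13 ± 0.06, with adjusted limma p of 0.64 and 0.74, and without the 2 arrays they were at 0.11 and 0.07. The authors' deposited table gives p-values of 0.031 and 0.074 for these probe sets, beside limma p before adjustment of 0.024 and 0.054.

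Sfxn1, a mitochondrial serine transporter, is the neighbour of Drd1 on chromosome 13. Drd1 lies at chr13:54051183-54055658 and Sfxn1 at chr13:54071656-54108346 in GRCm38.p6, 15997 bases apart, with no other gene listed wholly between them. In repeat 1 Sfxn1 was at 0.11, 0.25, 0.19 and 0.38 on the deletion arrays, all above the control arrays, which reached from -0.27 to 0.08. Absence of overlap in this direction was seen in 1.75% of all genes in repeat 1. In repeat 2 the deletion arrays reached from -0.49 to 0.14 and overlapped the control arrays, which reached from -0.35 to 0.19.

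The difference of Sfxn1 was 0.35 log2 in repeat 1 and 0.04 in repeat 2. The interaction of repeat and genotype was -0.31 ± 0.21 log2 (repeat 2 minus repeat 1, limma adjusted p = 0.93), so the repeats were not shown to differ. Over both repeats it was 0.20 ± 0.11 log2 (95% interval -0.04 to 0.43, adjusted p = 0.66), and without the 2 control arrays 0.12 ± 0.12. Its probe sets were unequal, at 0.28 ± 0.10 log2 for 1417560_at and 0.11 ± 0.14 for 1417559_at (limma adjusted p = 0.61 and 1.0). For them the authors' deposited table gives p-values of 0.029 and 0.42, beside limma p before adjustment of 0.018 and 0.42.

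Isl1, a LIM homeodomain transcription factor that specifies D1 neurons during development, differed between the repeats and not detectably by genotype. On the repeat 2 arrays it reached from -0.14 to 0.34 in deletion mice and from 0.25 to 0.33 in control mice. On the repeat 1 arrays it reached from -0.16 to -0.01 in deletion mice and from -0.32 to -0.13 in control mice. Repeat 2 minus repeat 1 was 0.34 ± 0.07 log2 (limma adjusted p = 0.0042), and Isl1 was the single member called between the repeats, where 14.9% of all genes were called. Its difference by genotype was -0.005 ± 0.068 log2 (95% interval -0.15 to 0.14), made of 0.13 in repeat 1 and -0.14 in repeat 2. By probe set it was 0.03 ± 0.09 log2 for 1422720_at and -0.03 ± 0.09 for 1450723_at. The interaction was -0.27 ± 0.12 log2, with a limma adjusted p of 0.93. Isl1 was the single member with an unadjusted p under 0.05 for the interaction, where 4.22% of all genes had one.

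Eya1, a transcriptional coactivator with phosphatase activity, was at -0.14 to 0.42 on the deletion arrays (median 0.01) and at -0.31 to 0.20 on the control arrays (median -0.04). The groups overlapped widely, and the difference was 0.13 ± 0.09 log2 (95% interval -0.08 to 0.33, limma adjusted p = 0.80). Its 3 probe sets spread unequally over the arrays. Probe set 1421727_at ranged from -1.05 to 1.06 and 1443117_at from -0.07 to 0.28, and their differences were 0.28 ± 0.25 and -0.02 ± 0.05 log2. The third, 1457424_at, differed by 0.11 ± 0.07 log2, with an adjusted p of 0.88.

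Tac1, the precursor of substance P, varied least of the 9 genes. It reached from -0.05 to 0.04 on the deletion arrays and from -0.19 to 0.04 on the control arrays, where the lowest value was that of control repeat 2 replicate 1. The difference was 0.02 ± 0.03 log2 (95% interval -0.05 to 0.08, limma adjusted p = 0.97), so an effect of the size seen in Slc35d3 lies outside its interval. That interval is for the mean of 2 probe sets of opposite sign. Probe set 1416783_at was at 0.07 ± 0.06 log2 (95% interval -0.07 to 0.20) and 1431883_at at -0.03 ± 0.02 (-0.08 to 0.02). The residual SD of Tac1 was 0.059, and 23.3% of all genes had a smaller one. Centred values do not show how bright its probe sets were.

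Drd2 and Plxdc1 spread more between arrays than the D1 genes. The residual SDs were 0.42 for Drd2, 0.41 for Gpr6 and 0.45 for Plxdc1, each above that of at least 95.4% of genes, against 0.06 to 0.22 for the 6 D1 genes. With the 2 control arrays left out they were 0.42 for Drd2, 0.43 for Plxdc1 and 0.12 for Gpr6, so that Gpr6 then lay among the D1 genes, at 0.03 to 0.22. Each D2 gene was measured by 1 probe set, while 5 of the 6 D1 genes are means of 2 or 3, and probe set 1421727_at of Eya1 alone had a residual SD of 0.51. Drd2, the D2 dopamine receptor, reached from -1.12 to 0.79 on the deletion arrays (median 0.01) and from -0.74 to 0.58 on the control arrays (median -0.05). The lowest was deletion repeat 2 replicate 2 and the highest deletion repeat 1 replicate 2, so the extremes were both in deletion mice. The difference was 0.12 ± 0.20 log2 (95% interval -0.32 to 0.55, limma adjusted p = 0.97), and without the 2 control arrays 0.25 ± 0.22.

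Gpr6, an orphan receptor coupled to cyclic AMP and enriched in D2 neurons, had a difference whose sign depended on the 2 control arrays. In repeat 1 it was at 0.31, 0.41, 0.17 and 0.24 on the deletion arrays, against 0.14, 0.03, 0.83 and -0.20 on the control arrays. In repeat 2 it was at -0.03, -0.17, -0.17, -0.29 and -0.05 on the deletion arrays, against 1.18, -0.26 and -0.21 on the control arrays. The values of 0.83 and 1.18 came from the 2 arrays high in oligodendrocyte markers, and each was the highest of its repeat.

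Over all 16 arrays Gpr6 differed by -0.14 ± 0.20 log2 (95% interval -0.57 to 0.29, limma adjusted p = 0.95), with 0.08 in repeat 1 and -0.38 in repeat 2. With the 2 control arrays left out it differed by 0.20 ± 0.07 log2 (95% interval 0.06 to 0.35) (limma adjusted p = 0.89). Plxdc1, a transmembrane protein with a plexin domain, reached from -0.89 to 0.93 on the deletion arrays (median -0.24) and from -0.68 to 0.70 on the control arrays (median 0.20). Its difference was -0.14 ± 0.22 log2 (95% interval -0.60 to 0.33, limma adjusted p = 0.97), against 0.05 ± 0.23 without the 2 arrays.

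**Figure D2:**
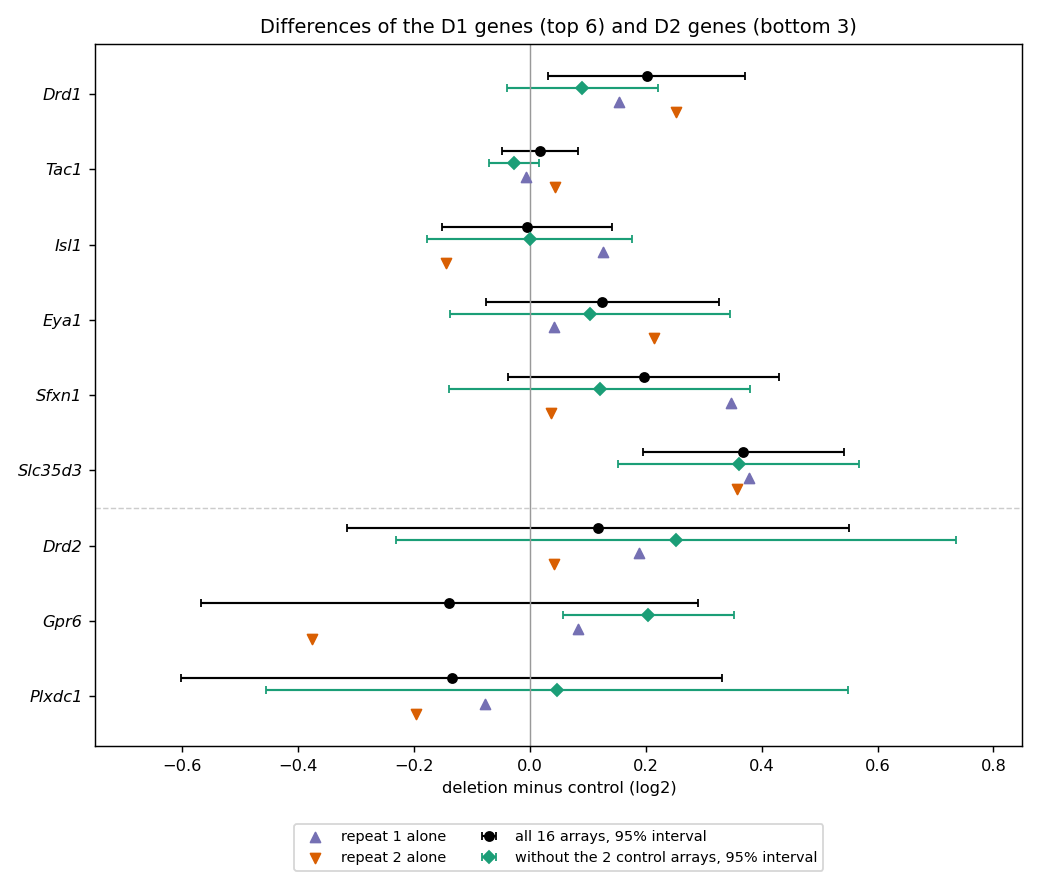
Deletion minus control in log2 (horizontal axis) for each of the 9 genes, over all 16 arrays and without the 2 control arrays, with 95% intervals of the fit, and as points for each repeat alone. Slc35d3 stays near 0.37 in each, and Gpr6 lies on both sides of 0, at -0.14 with all arrays and 0.20 without the 2 controls.

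The D1 to D2 balance of an array was taken as the mean of its 6 D1 genes minus the mean of its 3 D2 genes, and is given as a description with no p, since the genes were chosen with results known. In repeat 1 it was 0.14, -0.22, -0.23 and -0.38 on the deletion arrays, against -0.04, -0.19, -0.85 and -0.03 on the control arrays. In repeat 2 it was 0.25, 0.23, 0.34, 0.58 and 0.09 on the deletion arrays, against -0.68, 0.55 and 0.11 on the control arrays. The genotypes overlapped in both repeats, and the lowest balances, -0.85 and -0.68, were those of the 2 control arrays high in oligodendrocyte markers. The lowest balance on any other array was -0.38.

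Deletion minus control of the balance was 0.20 ± 0.18 log2 (SE, repeat as a term), with 0.11 in repeat 1 and 0.30 in repeat 2. It was -0.06 ± 0.11, of the opposite sign, when the 2 control arrays were left out. With the oligodendrocyte marker mean of each array as a further term it was 0.03 ± 0.12. The D1 genes alone had a mean of 0.08 ± 0.09 on the deletion arrays (SD, n = 9) and -0.07 ± 0.09 on the control arrays (SD, n = 7). Their difference was 0.15 ± 0.05 log2 (SE), and 0.11 ± 0.05 without the 2 arrays. The D2 genes had a mean of -0.01 ± 0.31 on the deletion arrays (SD, n = 9) and 0.09 ± 0.41 on the control arrays (SD, n = 7). Their difference was -0.05 ± 0.15 log2 (SE), and 0.17 ± 0.09 without the 2 arrays. The difference of the D2 genes thus turned its sign without the 2 control arrays, while that of the D1 genes kept it. These arrays had the highest D2 means, so leaving them out raises the D2 difference within each repeat by construction.

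**Figure D3:**
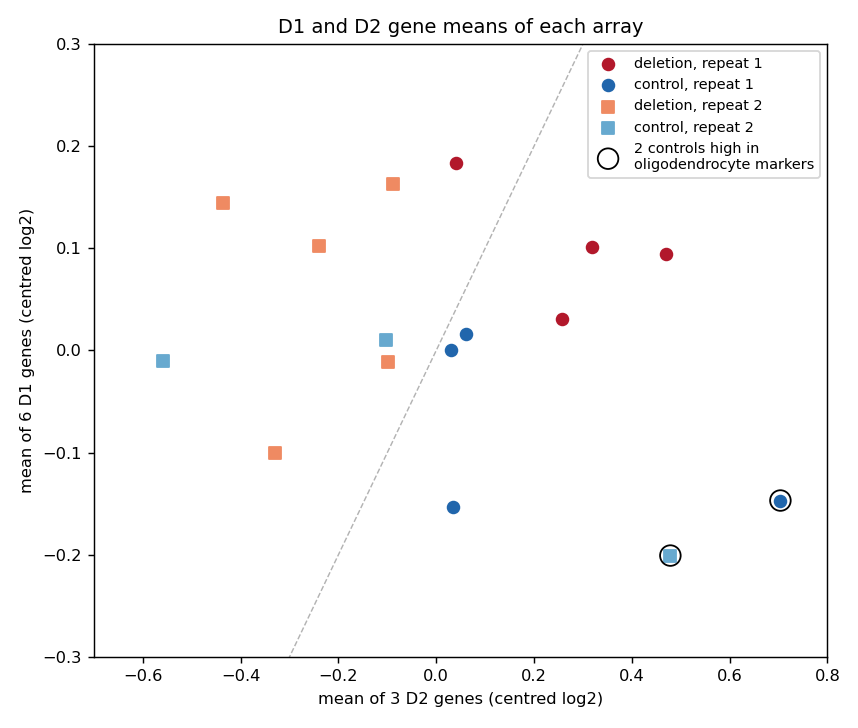
Mean of the 6 D1 genes (vertical axis) against mean of the 3 D2 genes (horizontal axis), both in centred log2, for each of the 16 arrays, with the dashed line where both are equal. The ringed control arrays lie at the lower right, at D2 means of 0.70 and 0.48, and the repeat 2 deletion arrays lie to the left, at D2 means of -0.44 to -0.09.

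The balance differed between the repeats by a larger fitted value than between the genotypes, but the sizes were not tested against each other. It was above 0 on 5 of 5 deletion and 2 of 3 control arrays in repeat 2, and on 1 of 4 deletion and 0 of 4 control arrays in repeat 1. Repeat 2 minus repeat 1 was 0.38 ± 0.17 log2 over all arrays and 0.45 ± 0.10 without the 2 control arrays. The mean of the D2 genes differed by -0.40 ± 0.15 between the repeats, and that of the D1 genes by -0.02 ± 0.05. Plxdc1 was at -0.58 ± 0.22 log2, Drd2 at -0.41 ± 0.20 and Gpr6 at -0.22 ± 0.20 between repeats (limma adjusted p = 0.093, 0.20 and 0.43), and none of them was called. The D1 mean joins genes of opposite sign, with Isl1, which was called, at 0.34 ± 0.07 and Drd1 and Sfxn1 each at -0.16. A balance of further markers, given under other observations, was lower in repeat 2 than in repeat 1 in both genotypes. The labels say nothing on how the repeats differed, and comparisons of genotype are therefore made within them.

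**Figure D4:**
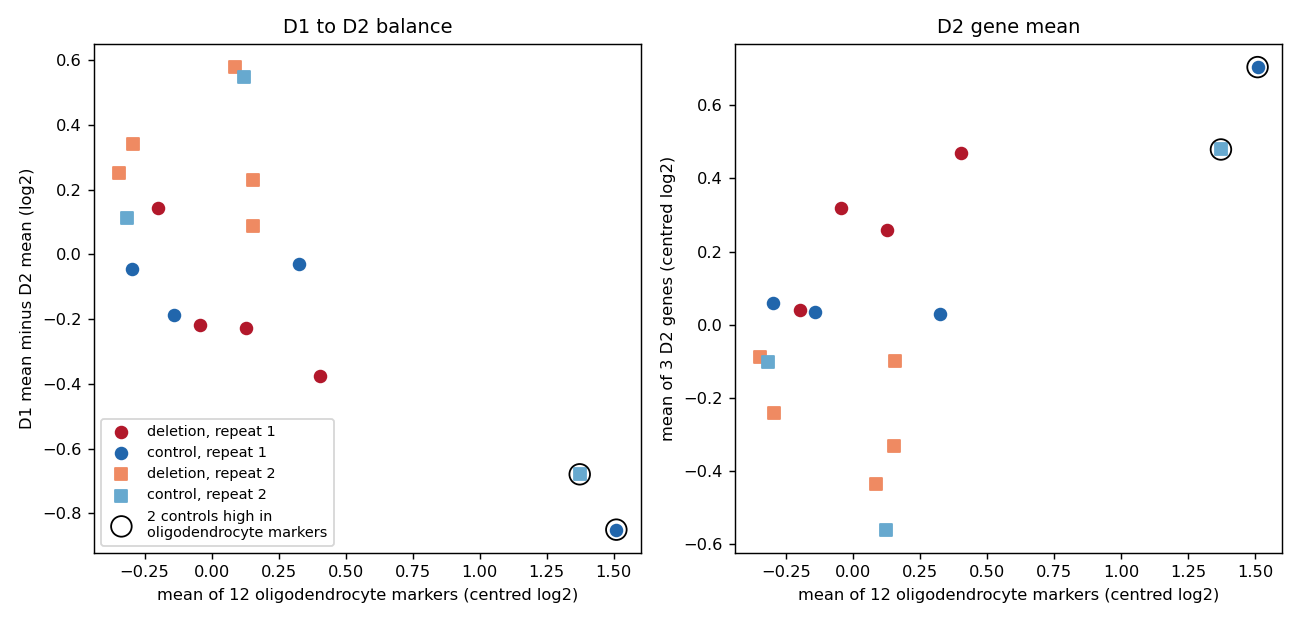
D1 to D2 balance (left, log2) and mean of the 3 D2 genes (right, centred log2) against the mean of 12 oligodendrocyte markers (horizontal axes, centred log2) on each of the 16 arrays. The 2 ringed control arrays lie alone at 1.51 and 1.37 on the horizontal axes, with the lowest balances and the highest D2 means, and among the other 14 arrays the repeats separate more than the genotypes. The D2 mean of deletion repeat 1 replicate 4, at 0.47, is close to that of the second ringed array.

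On control repeat 1 replicate 3 and control repeat 2 replicate 1 the microglia means were 0.48 and 0.42, against at most 0.20 on the deletion arrays. The astrocyte means on them were 0.56 and 0.35, and the deletion arrays reached 0.45. The interneuron means were 0.71 and 0.54, and the deletion arrays reached 0.78. Over all arrays, 12 of 12 measured oligodendrocyte markers had a negative difference, with a median of -0.30 log2, and without the 2 arrays 3 of 12 did, with a median of 0.07. The oligodendrocyte mean ranged from -0.35 to 0.41 on the deletion arrays and from -0.32 to 1.51 on the control arrays. Mbp, myelin basic protein, differed by -0.28 ± 0.22 log2 and Olig2, an oligodendrocyte lineage factor, by -0.65 ± 0.29 (limma adjusted p = 0.81 and 0.56). With the 2 arrays left out Mbp was at 0.08 ± 0.12 and Olig2 at -0.23 ± 0.21. The mean of 3 vascular markers differed by -0.11 ± 0.04 log2, and by -0.13 ± 0.05 without the 2 arrays. It rested on Esam, an endothelial adhesion molecule, at -0.32 ± 0.12. The other vascular markers were near 0, with residual SDs of 0.018 and 0.028, and centred values do not show whether they had signal. All 5 measured cortical neuron markers had a negative difference, with a median of -0.11 log2, and 3 of 5 did without the 2 arrays. Among them Slc17a7, a vesicular glutamate transporter, was at -0.54 ± 0.25, and at -0.44 ± 0.28 without the 2 arrays. Esam and Slc17a7 were named after their values were seen (limma adjusted p = 0.46 and 0.57), and the part of vascular or cortical RNA in the D1 differences was not tested. Interneurons of the striatum can express Drd2, and the part of other cells' RNA in the D2 values was not tested.

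After each array was taken as its deviation from the mean of its genotype and repeat, Drd1 had a Pearson r of 0.78 with Tac1 (Spearman rho 0.72), -0.81 with Plxdc1 (rho -0.78) and -0.74 with Gpr6 (rho -0.62) over 16 arrays. With Sfxn1 r was 0.48, with Isl1 0.42, with Eya1 0.34 and with Slc35d3 0.18. Drd1 and Drd2 had an r of 0.02. With the 2 control arrays dropped after the deviations were taken, r of Drd1 with Plxdc1 was -0.80, with Gpr6 -0.39 and with Tac1 0.54. With Sfxn1 it was then 0.29 and with Drd2 0.35. The group means still held the 2 arrays, which shifts the remaining controls of their groups. These values are therefore not free of the 2 arrays. These correlations describe points that share the RNA quality and cell content of an array, and they carry no p.

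The genes whose pattern was most like that of Drd1 were Ruvbl1 (r = 0.98, rho 0.93), a DNA helicase subunit, Gnb5 (r = 0.97, rho 0.97), a G protein beta subunit, and Ttc4 (r = 0.96, rho 0.89), a co-chaperone, over 16 arrays. Their differences by genotype were 0.17, 0.03 and 0.38 log2, with limma adjusted p of 0.92, 0.98 and 0.78. In all, 782 genes were more like Drd1 than Tac1 was, and 5454 more than Slc35d3 was, of 16206. The genes most like Drd2 were Glrx2 (r = 0.84, rho 0.77), Zfp809 (r = 0.83, rho 0.81) and Zfp354b (r = 0.83, rho 0.84). Gpr6 had an r of 0.39 with Drd2, and 1174 genes were more like Drd2 than it was.

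Further markers of both neuron types were looked at beside the members. Of the further D1 list 5 of 6 genes were measured, 3 with a positive difference and a median of 0.01 log2, and 0 were called. Pdyn, the precursor of dynorphin, was at 0.45, 0.36, 0.0016 and -0.0016 on the repeat 1 deletion arrays, against 0.35, 0.02, -0.42 and -0.25 on the control arrays. In repeat 2 it was at 0.19, 0.63, 0.44, -0.01 and -0.05 on the deletion arrays, against -0.75, -1.07 and -0.48 on the control arrays. The genotypes overlapped in repeat 1 and not in repeat 2, an absence of overlap seen in this direction in 1.73% of all genes. Pdyn differed by 0.63 ± 0.17 log2 (limma adjusted p = 0.27), and by 0.55 ± 0.19 without the 2 control arrays.

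Dlk1, a transmembrane protein related to Notch ligands, was at 0.21 ± 0.13 log2, Gnb4, a G protein beta subunit, at -0.12 ± 0.13, Ebf1, a transcription factor of D1 neuron development, at -0.01 ± 0.10, and Zfp521, a zinc finger protein, at 0.01 ± 0.13 (limma adjusted p of 0.70 or more). The value of Ebf1 was made of 0.22 in repeat 1 and -0.26 in repeat 2, with an interaction of -0.48 ± 0.15 log2 (limma adjusted p = 0.93). Of the further D2 list 4 of 8 genes were measured, 2 with a positive difference and a median of 0.01 log2, and 0 were called. Penk, the enkephalin precursor, reached from -0.27 to 0.10 on the deletion arrays (median -0.05) and from -0.17 to 0.50 on the control arrays (median 0.12). Its difference was -0.21 ± 0.08 log2 (limma adjusted p = 0.49), and 0 of 9 deletion values exceeded the mean of the controls in the same repeat, as in 2.57% of all genes. Penk was at -0.10 ± 0.07 when the 2 control arrays were left out. Grik3, a kainate receptor subunit, was at 0.02 ± 0.10 log2 and Cd4, a surface protein also found in D2 neurons, at 0.09 ± 0.06. With the 2 control arrays left out Grik3 was at 0.15 ± 0.08 and Cd4 at 0.02 ± 0.06. Upb1, an enzyme of pyrimidine breakdown, was at -0.005 ± 0.015, with a residual SD of 0.019, and centred values do not show whether it had signal.

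Genes that both neuron types use gave no call either. Of 14 measured, 9 had a positive difference, with a median of 0.03 log2. Without the 2 control arrays 7 did, with a median of -0.001. Ppp1r1b, which encodes the dopamine-regulated phosphoprotein DARPP-32, was at 0.04 ± 0.07 log2, Adcy5, the main striatal adenylyl cyclase, at 0.20 ± 0.12, and Foxp1, a forkhead factor of projection neurons, at -0.08 ± 0.07 (limma adjusted p of 0.68 or more). Arpp21 and Gad1, named after their values were seen, were the 2 of 14 with an unadjusted p under 0.05 over all arrays. Both were higher, where 4.97% of all genes were, or 8.69% in either direction. Without the 2 control arrays Arpp21 and Adcy5, then at 0.29 ± 0.13 log2, were the 2 at that threshold. Both were higher, where 2.67% of all genes were. Arpp21, a phosphoprotein regulated by cyclic AMP, was at 0.10 ± 0.03 log2, with 9 of 9 deletion values above the control mean of the repeat, and at 0.08 ± 0.03 without the 2 control arrays (limma adjusted p = 0.32 over all arrays). Gad1, a GABA-synthesising enzyme, was at 0.48 ± 0.19, and at 0.24 ± 0.17 without them (limma adjusted p = 0.50 over all arrays). It was not tested whether the positive differences were particular to D1 markers. Of the other dopamine receptors only Drd4 was measured here, and it differed by -0.04 ± 0.05 log2 (adjusted p = 0.94).

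The RefSeq table holds a promoter window for 7 of the 9 members, and the 250 bases before the start site are shown for 3 of them: Slc35d3, with the largest difference, Drd1, the gene behind the cell type's name, and Gpr6, whose sign turned with the 2 control arrays. Because the D1 and D2 receptors move cyclic AMP in opposite directions, the windows were searched on both strands for the core TGACG of the cyclic AMP response element and for the full element TGACGTCA, which holds the core on each strand. Capitals mark a match. They are chr10:19851460-19851709 (minus strand) for Slc35d3, chr13:54055659-54055908 (minus strand) for Drd1 and chr10:41072291-41072540 (minus strand) for Gpr6, in GRCm38.p6.
Slc35d3: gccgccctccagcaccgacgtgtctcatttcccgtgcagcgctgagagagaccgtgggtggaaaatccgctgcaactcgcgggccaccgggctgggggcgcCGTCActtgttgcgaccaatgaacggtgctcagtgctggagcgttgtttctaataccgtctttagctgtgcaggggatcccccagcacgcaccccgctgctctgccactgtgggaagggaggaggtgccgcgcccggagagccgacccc
Drd1: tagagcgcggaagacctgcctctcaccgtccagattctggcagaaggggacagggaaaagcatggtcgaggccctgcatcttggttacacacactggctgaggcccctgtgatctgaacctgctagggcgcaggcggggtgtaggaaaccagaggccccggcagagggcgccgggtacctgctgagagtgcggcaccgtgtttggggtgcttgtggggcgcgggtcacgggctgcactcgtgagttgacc
Gpr6: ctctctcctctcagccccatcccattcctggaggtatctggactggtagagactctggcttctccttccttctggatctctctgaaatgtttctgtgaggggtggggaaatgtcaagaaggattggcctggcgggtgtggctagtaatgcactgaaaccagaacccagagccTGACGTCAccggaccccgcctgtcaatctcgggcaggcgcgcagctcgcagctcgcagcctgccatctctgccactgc
The core was found in 4 of the 8 windows of these members, those of Gpr6, Isl1, Slc35d3 and Tac1, and in 17.8% of all 32851 windows of this length. The full element was found in the window of Gpr6 and in 1.55% of all windows. Neither window of Drd1 nor that of Drd2 held these letters. A match is a description of the letters, and no binding was measured.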

How the data were processed

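Polysome-associated RNA of tagged D1 neurons was hybridised to 16 Affymetrix arrays, 9 deletion and 7 control. The values deposited by the authors are log2 expression, centred so that the median of each of 37174 probe sets over the arrays is 0 to within 1e-06. GCOS 1.4 and GCRMA stand in the submitters' processing notes, with no role given, and how the centring was done is not stated in the sources used here. The authors also deposited 1 p-value for each probe set, which the file headers credit to the genotype term of a 2-way ANOVA. The 16 further value columns of that table bear names that match no label and were not used.

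After 62 Affymetrix control probe sets were left out, 37112 remained. The platform annotation of 2016 named a single gene for 29680 of them, more than 1 for 819 and no gene for 6613. Symbols were brought up to date by gene identifier to the RefSeq table of GRCm38.p6, which matched 29539. A gene was the mean of its probe sets. No filter on dim probe sets was possible with centred values. Differences were fitted with limma 3.58.1 in R 4.3.3 (lmFit, eBayes), in a two-sided test with a term for genotype and one for repeat, and with Benjamini-Hochberg adjustment over 16206 genes, and called at an adjusted p under 0.05. The fit was tested on simulated data. Intervals are 95% and errors are SE of the fitted difference unless stated. No 2 arrays held identical values. The labels do not say more on the replicates than that they are biological.

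The members and lists were chosen with earlier results of these data known. All members and all measured genes of the further D1 and D2 lists and the other dopamine receptors were named. So were Ppp1r1b, Adcy5 and Foxp1, Mbp and Olig2, and for Drd1 and Drd2 the 3 genes with the highest Pearson r. Arpp21, Gad1, Esam and Slc17a7 were added after their values were seen. Other list genes, such as Adora2a and Chrm4, were not used here. Alternatives covered the arrays used, the repeat term, scaling, the probe sets of a gene, the variance, a filter on a residual SD of 0.075, the oligodendrocyte mean as a term and the replicate number as a block.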

Additional observations from a re-analysis of the deposited data

Results flagged for a closer look

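In 36 groups of 4 or 5 arrays (9 genes and the D1, D2 and balance means in 3 groups each), 3 values lay far from the rest of their group by Dixon's test. Chance gives about 1 in 20 for independent groups, and these are not independent, since the means hold the same genes. Drd2 was at -1.12 on deletion repeat 2 replicate 2, where the next lowest of the 5 arrays was at -0.12. Plxdc1 was at 0.70 on control repeat 1 replicate 3, where the next highest of 4 arrays was at 0.24. The mean of the D2 genes was 0.70 on the same control array, where the next highest was 0.06. Plxdc1 is part of this mean, so its value and that of the mean are not separate.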

How the results depend on the processing

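No member was called under any of the 30 alternatives, among which the smallest adjusted limma p was 0.105, for Slc35d3 without deletion repeat 2 replicate 5. The difference of Slc35d3 kept its sign in all 30, between 0.33 and 0.43 log2, with an unadjusted p under 0.05 in each, and that of Drd1 kept its sign in all 30, between 0.09 and 0.28, with an unadjusted p under 0.05 in 23. Drd1 was at 0.13 without control repeat 2 replicate 1. Eya1, Sfxn1 and Drd2 also kept their signs, but with 1 array left out Drd2 lay between 0.02 (without control repeat 2 replicate 2) and 0.23 (without deletion repeat 2 replicate 2), and Eya1 was at 0.073 without control repeat 2 replicate 2. Plxdc1 lay between -0.25 (without deletion repeat 1 replicate 4) and -0.03 (without control repeat 2 replicate 1). With 1 array left out, Tac1 lay between -0.015 and 0.032, Isl1 between -0.035 and 0.035 and Gpr6 between -0.22 and 0.089 (without control repeat 2 replicate 1). Without the 2 control arrays together, the balance was -0.06, Tac1 at -0.028, Gpr6 at 0.20 and Plxdc1 at 0.047. With the oligodendrocyte mean as a term, Tac1 was at -0.014, Gpr6 at 0.060 and Plxdc1 at 0.030. In repeat 1 alone, Tac1 was at -0.0065, Isl1 at 0.13 and Gpr6 at 0.083. Isl1 was at 0.038 with no term for repeat and at 0.025 with the probe set of largest SD. The cause of these turns of sign was not tested.

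The balance lay between 0.05 (without control repeat 2 replicate 1) and 0.31 with 1 array left out, at 0.12 without control repeat 1 replicate 3, and at 0.16 to 0.29 with 1 gene left out. Over all genes, 10 were called, between 2 and 10 with 1 array left out. The count was 1 without the 2 control arrays together, 0 in repeat 1 or repeat 2 alone, 4 with no term for repeat, 2 with the oligodendrocyte mean as a term, 2 with ordinary variance and 6 with the interaction in the model. With the replicate block it was 1, over 7 pairs whose deviations correlated between -0.30 and 0.43, with 3 of 7 over 0.1, so the numbers were not taken to pair the mice, and the balance was then 0.18. Probe sets called were 12, and 0 without the 2 control arrays. The interaction called 0 genes (684 at an unadjusted p under 0.05), and 4 without the 2 control arrays. The number of arrays and the lack of absolute signal limit all values.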

Other observations

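The same kind of balance, taken from the further markers alone (the mean of Pdyn, Ebf1, Zfp521, Dlk1 and Gnb4 minus the mean of Penk, Grik3, Upb1 and Cd4), had a median of 0.07 on the deletion arrays (-0.18 to 0.21) and -0.05 on the control arrays (-0.31 to 0.05). On the deletion arrays its mean was 0.14 in repeat 1 and -0.01 in repeat 2, and on the control arrays 0.0007 and -0.21. It was thus lower in repeat 2, whereas the balance of the 9 members was higher there. Deletion minus control of the further-marker balance was 0.17 ± 0.05 log2 (SE), with 0.14 in repeat 1 and 0.20 in repeat 2. It was 0.12 ± 0.05 without the 2 control arrays high in oligodendrocyte markers, of the same sign, whereas the balance of the 9 members was then -0.06 ± 0.11. It rested on Pdyn and Penk: it was 0.04 ± 0.05 without Pdyn, 0.11 ± 0.04 without Penk and -0.02 ± 0.04 without both, an alternative chosen after seeing the data, and the median differences of the further D1 and D2 genes were both 0.01 log2. These are descriptions with no p, and the difference between the 2 balances was not tested.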
